A study of Mus musculus with 79 samples.

Results

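The genes IL2, IL3, IL21, TNF, LTA, LIF and CSF1 encode cytokines that activated T helper cells can make, and they are written below with mouse symbols as Il2, Il3, Il21, Tnf, Lta, Lif and Csf1. They were taken by name as 7 of the 20465 genes of the expression table and were followed over all 16 groups of cell type, treatment and sort. Il2 rose with EGCG in both cell types and both sorts, and Il2, Il3 and Lta were the members that differed most between the cell types.

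When the antigen receptor and CD28 of a T cell are engaged, calcium and kinase signals bring NFAT, AP-1 and NF-kB factors to cytokine promoters, and transcripts of IL-2, TNF and related cytokines appear within hours. IL-2 is a T cell growth factor that acts through STAT5, and in helper T cells IL-2 and STAT5 restrain the Th17 programme. IL-3 is a growth factor for haematopoietic progenitors, basophils and mast cells. IL-21 is a product of follicular helper and Th17 cells that acts through STAT3. TNF and lymphotoxin alpha, the product of Lta, are ligands of the TNF receptors and activate NF-kB, and lymphotoxin alpha also forms a membrane complex with lymphotoxin beta. LIF is a cytokine of the IL-6 family, and CSF1 is the growth factor of macrophages.

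Mouse T cells were labelled with CFSE, a dye that is diluted at each division, and cultured as Th17 cells, either pathogenic (Th17p, in IL1b, IL6 and IL23) or non-pathogenic (Th17n, in TGFb and IL6). The cultures received 20 µM EGCG (the green tea catechin epigallocatechin gallate) or its solvent DMSO, or 50 µM DHEA or its solvent methanol. RNA was taken from unsorted cells (Total) and from cells sorted after exactly 1 division (Div.1). The labels describe 5 mice per condition as biological replicates, and strain, age, sex and any genetic change of the mice are not given in the sources used here. All 8 combinations of cell type and treatment in Total had 5 libraries, as did 6 of the 8 in Div.1, and the Div.1 cells of both types in DMSO had 4. These were cells differentiated in culture, and no group came from tissue.

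Values were TPM, the abundance of a transcript relative to its length and to the whole library. They do not keep the number of reads, so depth was unknown and counting error has no interval here. The table held 79 libraries, of which 78 were used, with 9338 to 9845 genes at 1 TPM or more in each. Well A4 was not used, since it was labelled Th17n in DMSO within a plate row otherwise labelled Th17p. DMSO and EGCG libraries came from well columns 1 to 5 and methanol and DHEA libraries from columns 6 to 10, so the pair of solvents and the plate position cannot be told apart. Among the libraries used, each plate row held a single cell type and a single sort, and either solvents or compounds. Cell type, sort and compound therefore cannot be told apart from the plate row either. EGCG and DHEA were not compared with each other because their doses and solvents differed. Markers of the labelled cell were present in all 78 libraries, with Cd4 at 67.9 to 186 TPM, Cd3e at 89.3 to 174 TPM and summed Th17 markers at 524 to 8940 TPM. Summed markers of B cells (at most 5.61 TPM), of myeloid cells (at most 3.18) and of mast cells and basophils (at most 1.64) were low beside summed T cell markers of 1860 to 3230 TPM. In bulk RNA, fewer cells of a type and less RNA per cell cannot be told apart.

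Il2, Il21, Tnf, Lta and Lif were at 1 TPM or more in all 78 libraries. Il3 was at 1 TPM or more in 40 libraries, all 39 of Th17p and 1 of Th17n, and was listed at 0 in 28. Csf1 reached 1 TPM in only 3 libraries, all of them Th17n, and its highest group mean was 0.802 TPM. Changes were tested with limma on log2(TPM + 1), adjusted over the 10672 genes with at least 1 TPM in at least 4 libraries, with calls made at an adjusted p under 0.05. Of the 7 members, 6 passed that filter. Il3 passed it through Th17p cells alone, so that it was bound to differ between the cell types, and Csf1 missed it.

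Il2 and Il21 are neighbours on chromosome 3 and Tnf and Lta on chromosome 17, and the pairs are shown by position because their members behaved differently in these cells. In GRCm38, Il2 lies at chr3:37120523-37125959 and Il21 at chr3:37222759-37232636, both on the minus strand and 96.8 kb apart. Tnf lies at chr17:35199381-35202007 and Lta at chr17:35203165-35205351, both on the minus strand and 1.2 kb apart. Il3 (chr11:54265303-54267277, minus strand), Lif (chr11:4257557-4272514, plus strand) and Csf1 (chr3:107741048-107760469, minus strand) are single members at their places.

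The 250 bases before the transcription start are printed for Il2 and Tnf, the members with the most calls, and for Il3 and Lta, which differed strongly between the cell types, from the RefSeq promoter table on GRCm38.p6, 5′ to 3′ on the strand of the gene. Capitals mark the core GGAAA bound by NFAT factors (TTTCC on the other strand) and the TATA box TATAAA. The STAT motif TTCNNNGAA was searched and is not in capitals. The windows are chr3:37125955-37126204 for Il2, chr11:54267280-54267529 for Il3, chr17:35202008-35202257 for Tnf and chr17:35205352-35205601 for Lta, all on the minus strand.
Il2: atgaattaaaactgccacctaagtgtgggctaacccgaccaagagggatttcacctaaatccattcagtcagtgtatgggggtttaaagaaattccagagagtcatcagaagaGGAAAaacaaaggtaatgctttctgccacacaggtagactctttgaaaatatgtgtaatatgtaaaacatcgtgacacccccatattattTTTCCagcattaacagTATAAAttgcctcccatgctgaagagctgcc
Il3: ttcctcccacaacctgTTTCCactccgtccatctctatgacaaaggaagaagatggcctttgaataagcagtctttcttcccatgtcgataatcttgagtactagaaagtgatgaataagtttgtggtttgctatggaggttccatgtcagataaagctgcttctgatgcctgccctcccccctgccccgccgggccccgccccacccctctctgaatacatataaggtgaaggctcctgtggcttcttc
Tnf: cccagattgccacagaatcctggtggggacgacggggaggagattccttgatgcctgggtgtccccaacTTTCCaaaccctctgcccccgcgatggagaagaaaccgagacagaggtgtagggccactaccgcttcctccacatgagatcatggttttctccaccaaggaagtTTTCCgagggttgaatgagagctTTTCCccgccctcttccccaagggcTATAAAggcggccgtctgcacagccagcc
Lta: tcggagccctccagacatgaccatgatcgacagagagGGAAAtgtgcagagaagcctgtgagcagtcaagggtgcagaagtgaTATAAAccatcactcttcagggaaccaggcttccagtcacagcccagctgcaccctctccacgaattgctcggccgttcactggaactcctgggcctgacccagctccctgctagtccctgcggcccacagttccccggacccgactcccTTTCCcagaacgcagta
Il2 held 2 NFAT cores, at -137 to -133 and -47 to -43 from the start, and a TATA box at -31 to -26. Tnf held 3 cores, starting at -181, -77 and -54, with a TATA box at -29 to -24. Il3 held 1 core, at -234 to -230. Lta held 2 cores, the nearer one at -17 to -13 overlapping a STAT match at -16 to -8, a second STAT match at -152 to -144, and a TATAAA at -167 to -162. On both strands, the core GGAAA was in 55.6%, TTCNNNGAA in 7.0% and TATAAA in 12.4% of 32851 promoter windows of the same length. The AP-1 motif TGANTCA (6.7% of windows), the CRE motif TGACGTCA (1.5%) and a kB-like motif (17.6%) were also searched on both strands and had no match in these 4 windows. A match is a description of letters and not a site in use.

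The first comparison asked how the members differed between pathogenic and non-pathogenic cells in solvent alone. Il2 and Il3 were higher in Th17p, and Lta, Tnf and Lif were higher in Th17n. In Total cells, 2 of the 6 members tested were higher in Th17p (30.9% of all genes tested), Il3 by the way it passed the filter, and 4 were lower (26.5%). In Div.1 cells, 2 were higher (34.9%) and 3 were lower (25.7%).

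Il2, the T cell growth factor, was the most abundant member in Th17p. Its level was 1035 to 6007 TPM (median 1609) in the 39 Th17p libraries and 91.2 to 1346 TPM (median 376.4) in the 39 Th17n libraries, so that the types overlapped only when treated cells were included. In the solvents it averaged 1445 TPM in Th17p Total against 159.2 TPM in Th17n Total, a 9.08-fold difference with no overlap of libraries (log2 change 3.20, SE 0.144, limma adjusted p = 1.43e-30). In Div.1 the difference was 8.86-fold (adjusted p = 1.84e-29 by limma).

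Il3, a growth factor of basophils and mast cells, was found in Th17p and was at or near 0 in Th17n. Every Th17p library held it, between 1.19 and 69.8 TPM (median 12.6), while 38 of 39 Th17n libraries were below 1 TPM and the highest held 1.51 TPM. Means in solvent were 7.92 and 0.0868 TPM in Total, and 10.2 and 0.0248 TPM in Div.1. Since Il3 passed the filter through Th17p, its limma calls between types add no support and its values stand as a description.

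Lta had the reverse order, with the largest difference of the members on the log2(TPM + 1) scale, a scale that understates the gap of Il3. Its 39 Th17n libraries held 855.3 to 1812 TPM and its 39 Th17p libraries 52.03 to 162.1 TPM, without overlap under any treatment. In solvent Total cells the means were 1498 TPM in Th17n and 111.5 TPM in Th17p, 13.4-fold lower in Th17p (log2 change -3.79, SE 0.0813, limma adjusted p = 1.44e-49), and in Div.1 they were 1219 and 104 TPM (log2 change -3.59, limma adjusted p = 1.78e-46).

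Tnf, the neighbour of Lta, differed in the same direction by much less. It was 1.84-fold lower in Th17p Total (log2 change -0.87, SE 0.0831, limma adjusted p = 1.24e-14) and 1.61-fold lower in Th17p Div.1 (limma adjusted p = 9.39e-10). The ratio of Lta to Tnf within a library showed how unequally the neighbours were used. It was 7.27 to 9.36 (median 9.03) in Th17n Total in DMSO and 0.872 to 1.22 (median 0.986) in Th17p Total in DMSO, so that in DMSO the transcripts were about even in Th17p and Lta prevailed in Th17n.

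Lif, of the IL-6 family, was 1.89-fold lower in Th17p Total (log2 change -0.90, SE 0.0894, limma adjusted p = 5.66e-14) and 1.41-fold lower in Div.1 (limma adjusted p = 4.24e-05). Il21, which is known as a Th17 product, was 1.46-fold lower in Th17p Total (log2 change -0.53, SE 0.0941, limma adjusted p = 1.25e-06), whereas in Div.1 its log2 change was -0.01 (limma adjusted p = 0.927).

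**Figure D1:**
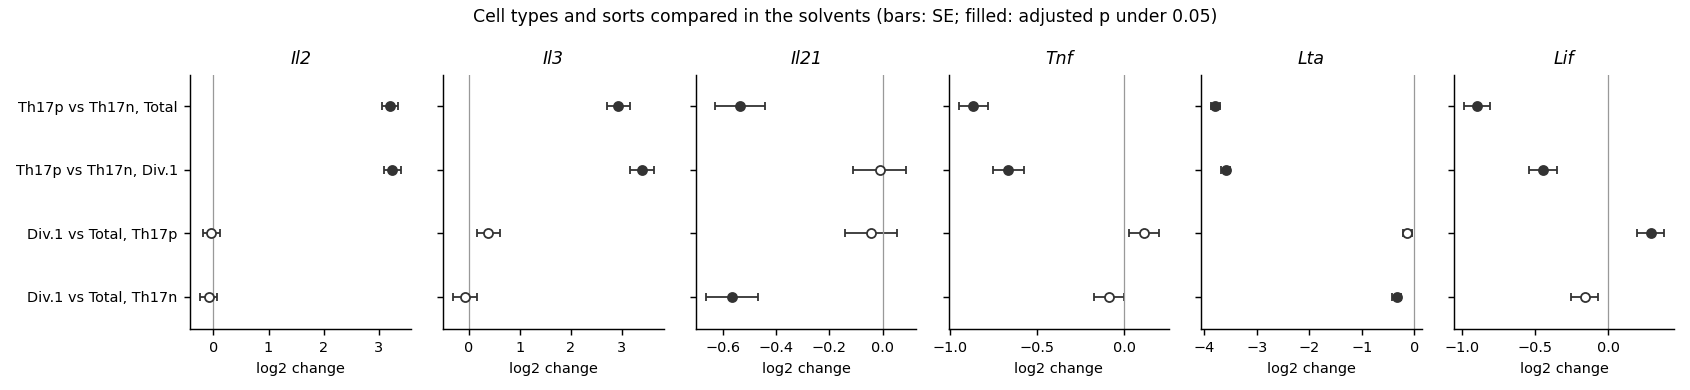
Log2 change of each member (± SE, limma) between Th17p and Th17n in solvent and between Div.1 and Total in solvent; filled points passed an adjusted p of 0.05. Lta lies lowest between the cell types, at -3.79 in Total, and Il2 and Il3 lie above 0.

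Over the 16 groups, the order of Il2 fell into 3 blocks. Th17p with EGCG stood first at 5657 ± 391 TPM in Div.1 and 5292 ± 514 TPM in Total (SD, n = 5 each), where Il2 ranked 6 among all genes by mean TPM. The other Th17p groups and the Th17n groups given a compound followed, from 2245 ± 590 TPM in Th17p Div.1 with DHEA to 440.5 ± 73 TPM in Th17n Total with DHEA. Th17n in solvent came last, from 167.9 ± 64.2 to 150.5 ± 95.0 TPM. Of the 15 pairs of neighbours in that order, 13 overlapped in their libraries, and the breaks lay below Th17p Total with EGCG and below Th17n Total with DHEA.

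The Lta order had 2 breaks, one between all Th17n and all Th17p groups and one within Th17p. Above the second break stood Th17p with methanol or DHEA, at 123.6 to 140.6 TPM, and below it Th17p with DMSO or EGCG, at 63.7 to 82.4 TPM. For Il3 the break lay between Th17p and Th17n, and the highest groups were Th17p with EGCG at 50.3 ± 15.2 TPM in Total and 50.1 ± 8.33 TPM in Div.1 (SD, n = 5 each). All neighbours overlapped for Tnf, Il21 and Lif, whose highest and lowest group means differed by 4.17-fold, 2.27-fold and 2.57-fold. For Tnf these ran from 336.5 ± 48.5 TPM in Th17n Div.1 with DHEA to 80.7 ± 4.28 TPM in Th17p Total in DMSO.

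**Figure D2:**
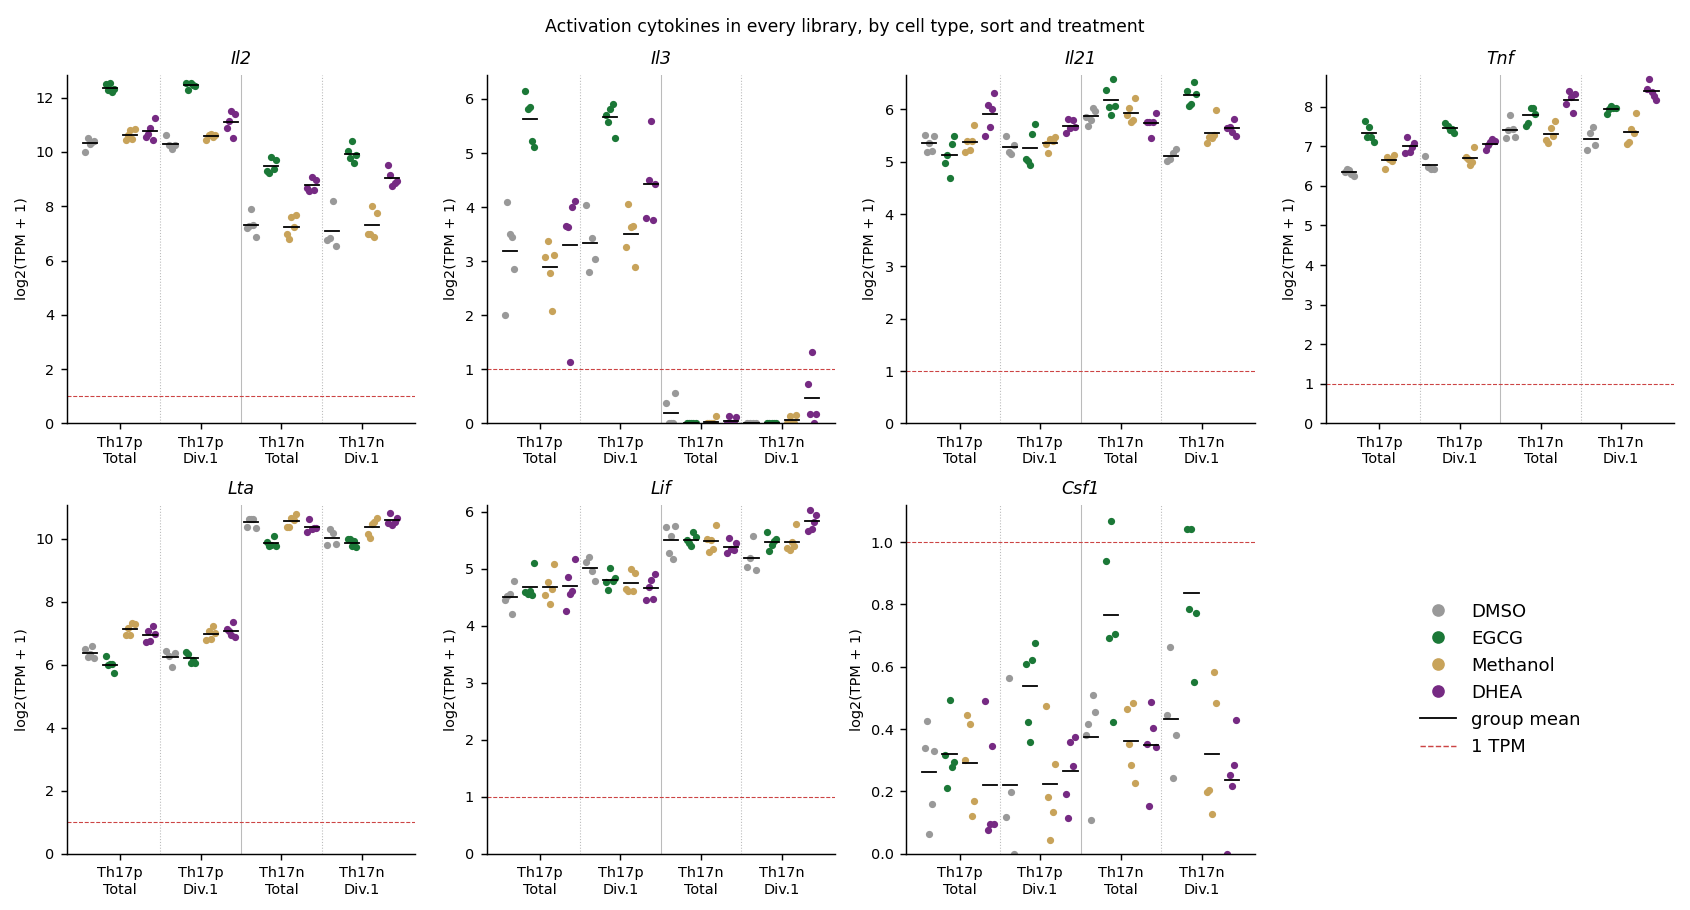
Level of each of the 7 members in every library as log2(TPM + 1), by cell type and sort, with colour for the treatment, black lines for group means and a dashed line at 1 TPM. Il2 is highest in Th17p with EGCG (4707 to 6007 TPM), Lta separates Th17n from Th17p in all libraries, and Csf1 stays near or below the 1 TPM line.

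The second comparison asked how the members differed with EGCG against DMSO. Il2 rose 4.11-fold to 6.66-fold in both cell types and both sorts, and Tnf rose 1.29-fold to 2.02-fold in all 4. Il3 rose 5.52-fold and 5.19-fold in Th17p. Lta fell in Total cells of both types, and Il21 rose in Th17n Div.1. In Th17p Total, 3 members rose (30.1% of all genes tested) and 1 fell (14.9%), in Th17p Div.1 3 rose (33.7%) and none fell (11.9%), in Th17n Total 2 rose (21.7%) and 1 fell (13.5%), and in Th17n Div.1 3 rose (28.1%) and none fell (6.77%). The median log2 change of the members tested was 0.58, 0.45, 0.17 and 0.51 in that order, beside 0.09, 0.12, 0.05 and 0.11 over all genes tested. Rescaling each library by the median ratio to a mean library moved the medians of all genes by -0.07, -0.10, -0.04 and -0.11 and evened the calls over all genes, to 23.5% higher and 21.1% lower, 22.8% and 21%, 17.9% and 17.9%, and 15.4% and 15.7%. No member's call for EGCG was lost or turned by it.

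In Th17p Total, Il2 stood at 5740.0, 5042, 5920.0, 4707 and 5053 TPM with EGCG, in the order of the well columns, and at 1035, 1452, 1260.0, 1318 and 1369 TPM with DMSO. The groups did not overlap, and the lowest EGCG library lay far above the highest DMSO library. The change was 4.11-fold (log2 change 2.04, SE 0.204, limma adjusted p = 2.48e-13). In Th17p Div.1 the EGCG libraries held 5967, 5039, 6007, 5703 and 5568 TPM against 1568, 1208, 1099 and 1231 TPM, again without overlap and 4.43-fold higher (log2 change 2.16, SE 0.216, limma adjusted p = 3.24e-13).

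In Th17n Total, Il2 held 629, 592, 896, 668 and 836 TPM with EGCG and 147, 153, 240.2, 157 and 116 TPM with DMSO. The groups were apart, and the increase was 4.45-fold (log2 change 2.17, SE 0.204, limma adjusted p = 1.32e-13). In Th17n Div.1 the values were 1061, 882, 1346, 776 and 944 TPM and 107, 112, 292 and 91.2 TPM, with the library of well column 3 the highest of both groups. The groups did not overlap there either, at a 6.66-fold increase (log2 change 2.87, SE 0.216, limma adjusted p = 1.17e-17). The EGCG-treated Th17n cells so held 724 ± 134 TPM in Total and 1002 ± 218 TPM in Div.1 (SD, n = 5 each), beside 1277 ± 203 TPM (SD, n = 4) in Th17p Div.1 in DMSO, which the EGCG-treated Th17n Div.1 libraries overlapped.

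Il3 in Th17p Total stood at 69.8, 55.2, 56.8, 36.5 and 33.4 TPM with EGCG and at 2.99, 16.1, 10.4, 9.85 and 6.28 TPM with DMSO. The groups were apart, at a 5.52-fold increase (log2 change 2.45, SE 0.314, limma adjusted p = 1.01e-09). In Div.1 the values were 51.2, 46.4, 55.5, 59.4 and 37.9 TPM and 15.5, 6, 9.77 and 7.25 TPM, again apart and 5.19-fold higher (log2 change 2.33, SE 0.333, limma adjusted p = 2.38e-08). Th17n cells remained below 1 TPM for Il3 in both sorts with EGCG and with DMSO.

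Tnf in Th17p Total held 199, 150.4, 180, 149 and 137 TPM with EGCG and 81.3, 85.2, 84, 78 and 74.8 TPM with DMSO. All EGCG libraries lay above all DMSO libraries, a 2.02-fold increase (SE 0.118 on the log2 scale, limma adjusted p = 8.44e-11). Th17p Div.1 rose 1.91-fold (log2 change 0.93, limma adjusted p = 3.76e-09) and Th17n Div.1 1.66-fold (log2 change 0.75, limma adjusted p = 1.58e-06), both without overlap. In Th17n Total the values were 183, 193, 251, 252 and 224 TPM and 148, 169, 219, 171 and 149 TPM. Those groups overlapped, and the increase was 1.29-fold (log2 change 0.37, limma adjusted p = 0.0111).

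Lta moved against its neighbour Tnf in Total cells. In Th17n Total it held 952, 864, 886, 1096 and 872 TPM with EGCG and 1338, 1583, 1593, 1593 and 1311 TPM with DMSO. Every EGCG library was lower, a 1.59-fold decrease (log2 change -0.67, SE 0.115, limma adjusted p = 4.07e-06). In Th17p Total the values were 76.7, 62, 64, 63.9 and 52 TPM and 88.6, 74.2, 79.8, 95.5 and 73.7 TPM, which overlapped at a 1.29-fold decrease (log2 change -0.37, SE 0.115, limma adjusted p = 0.00643). In Div.1 the log2 changes of Lta were -0.06 in Th17p (limma adjusted p = 0.737) and -0.15 in Th17n (limma adjusted p = 0.348). With well A4 placed under its label, which widens the spread shared by all groups, the Lta decrease did not pass in Th17p Total (limma adjusted p = 0.313, over all alternatives 0.000623 to 0.313) or in Th17n Total (limma adjusted p = 0.0641, over all alternatives 3.07e-07 to 0.0641). The ratio of Lta to Tnf in Th17n Total was 3.52 to 5.19 (median 4.36) with EGCG, below the 7.27 to 9.36 of DMSO, and in Th17p Total it was 0.355 to 0.429 (median 0.386), below the 0.872 to 1.22 of DMSO.

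Il21 in Th17n Div.1 stood at 80.9, 65.7, 67.8, 90.8 and 77.5 TPM with EGCG and at 31.3, 32, 34.7 and 36.8 TPM with DMSO. The groups were far apart, and the increase was 2.27-fold (log2 change 1.15, SE 0.141, limma adjusted p = 6.49e-10). In Th17n Total the log2 change of Il21 was 0.32 and missed the threshold (limma adjusted p = 0.052). It passed when 1 of 4 libraries was left out, DMSO of column 4 or EGCG of columns 2, 3 or 5 (limma adjusted p = 0.0228 to 0.0466), within a range over all alternatives of 0.011 to 0.211. In Th17p the log2 changes of Il21 were -0.23 in Total (limma adjusted p = 0.163) and -0.03 in Div.1 (limma adjusted p = 0.89), and after rescaling by the median ratio the value in Total was -0.30 and passed (limma adjusted p = 0.0437, over all alternatives 0.0437 to 0.518).

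Lif had no call for EGCG, with log2 changes from -0.21 in Th17p Div.1 to 0.28 in Th17n Div.1. After rescaling by the median ratio its value in Th17p Div.1 was -0.33 and passed (limma adjusted p = 0.0277, over all alternatives 0.0277 to 0.445), and without the DMSO library of column 3 its value in Th17n Div.1 was 0.40 and passed (limma adjusted p = 0.0232, over all alternatives 0.0197 to 0.386).

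**Figure D3:**
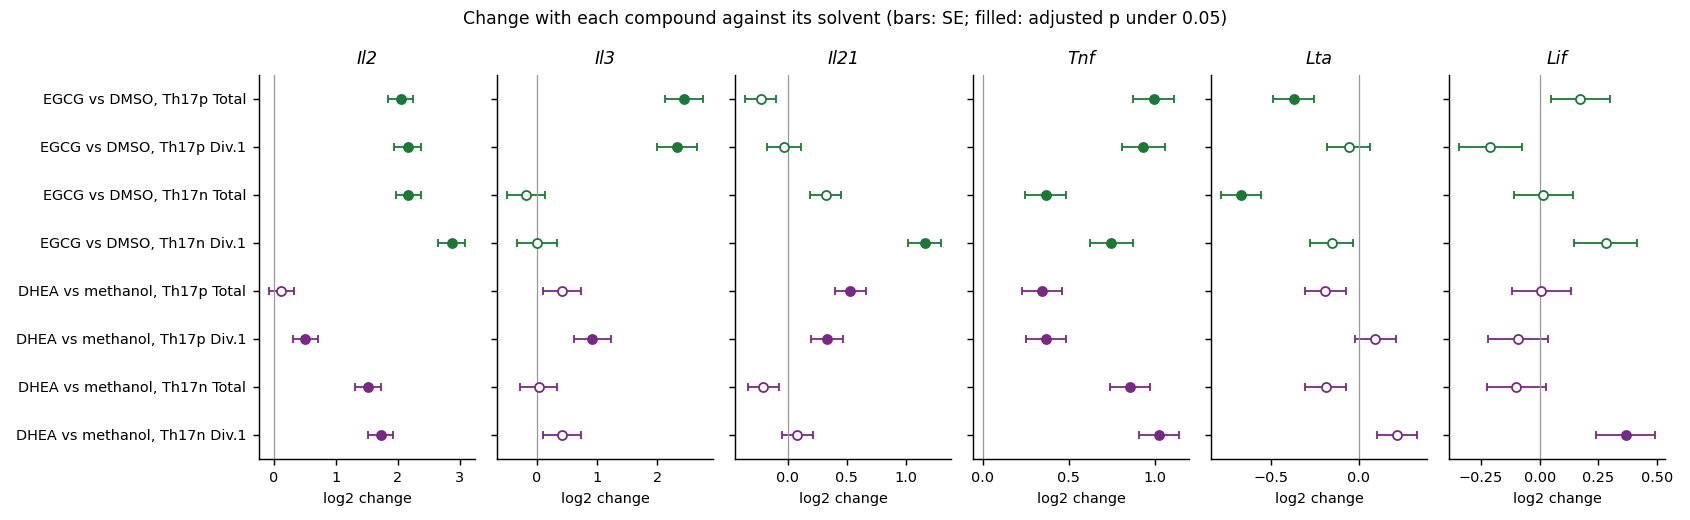
Log2 change (± SE, limma) of the 6 members tested for both compounds, each set against its solvent by cell type and sort; filled points passed an adjusted p of 0.05. Il2 lies between 2.04 and 2.87 with EGCG in all 4 comparisons, and with DHEA it is highest in Th17n, at 1.52 in Total and 1.72 in Div.1.

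The third comparison asked the same of DHEA against methanol. Il2 rose 2.83-fold and 3.20-fold in Th17n and Tnf rose in both cell types, while the calls of Il2 and Il3 in Th17p Div.1 were lost without single libraries. In Th17p Total, 2 members rose (20.9% of all genes tested) and none fell (26.8%), in Th17p Div.1 4 rose (18.1%) and none fell (19.2%), in Th17n Total 2 rose (20.8%) and none fell (25.3%), and in Th17n Div.1 3 rose (22.1%) and none fell (14.6%). The median log2 change of the members was 0.23, 0.35, -0.04 and 0.39, beside -0.02, 0.01, -0.01 and 0.05 over all genes tested.

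In Th17n Total, Il2 held 408, 376, 537, 382 and 499 TPM with DHEA and 125, 109, 191, 149 and 204 TPM with methanol. All DHEA libraries were higher, by 2.83-fold in the means (log2 change 1.52, SE 0.204, limma adjusted p = 3.6e-09). In Th17n Div.1 the values were 738, 563, 432, 467 and 483 TPM and 124, 126, 256, 116 and 216 TPM, also apart and 3.20-fold higher (log2 change 1.72, limma adjusted p = 2.36e-10).

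In Th17p Total the log2 change of Il2 with DHEA was 0.12 (limma adjusted p = 0.666), with 1482, 1609, 1890.0, 1406 and 2458 TPM in the DHEA libraries and 1603 ± 202 TPM (SD, n = 5) in methanol. In Th17p Div.1 it rose 1.46-fold with overlapping groups (log2 change 0.51, SE 0.204, limma adjusted p = 0.0421), from 1534 ± 96.0 to 2245 ± 590 TPM (SD, n = 5 each). That call was lost in 8 of 10 fits with 1 library left out, any of the methanol libraries or DHEA of columns 7, 8 or 10 (limma adjusted p = 0.053 to 0.145, over all alternatives 0.0119 to 0.192).

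Tnf in Th17n Total held 268, 338, 303, 229.8 and 316 TPM with DHEA and 142, 134, 176, 151 and 198 TPM with methanol. The groups were apart, at a 1.81-fold increase (log2 change 0.86, SE 0.118, limma adjusted p = 6.34e-09), and in Th17n Div.1 the increase was 2.02-fold without overlap (log2 change 1.03, limma adjusted p = 7.96e-11). In Th17p it rose 1.27-fold in Total (limma adjusted p = 0.0119) and 1.29-fold in Div.1 (limma adjusted p = 0.0101). The call in Th17p Total was lost without the methanol library of column 6 (limma adjusted p = 0.051) or the DHEA library of column 7 (limma adjusted p = 0.0514), the range over all alternatives being 0.00278 to 0.0514.

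Il21 rose 1.47-fold in Th17p Total with DHEA (log2 change 0.53, SE 0.133, limma adjusted p = 0.000634), from 35.5, 41.1, 36.2, 41.1 and 50.7 TPM to 44, 66.5, 49.5, 63 and 78.4 TPM, and those groups overlapped. In Th17p Div.1 it rose 1.26-fold without overlap (log2 change 0.33, limma adjusted p = 0.043), a call lost in 7 of 10 fits with 1 library left out, methanol of columns 6, 7 or 9 or DHEA of columns 7 to 10 (limma adjusted p = 0.0527 to 0.118, over all alternatives 0.00455 to 0.118). In Th17n its log2 changes were -0.20 in Total (limma adjusted p = 0.219) and 0.08 in Div.1 (limma adjusted p = 0.669).

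Il3 in Th17p Div.1 stood at 12.9, 21.8, 47.5, 12.6 and 20.6 TPM with DHEA and at 8.63, 15.7, 11.4, 11.5 and 6.41 TPM with methanol. The library of column 8 stood above the others and the groups overlapped, at a 2.15-fold increase (log2 change 0.92, SE 0.314, limma adjusted p = 0.0156). The call was lost without that library (log2 change 0.63, limma adjusted p = 0.122) or without the methanol library of column 10 (log2 change 0.77, limma adjusted p = 0.0624), the range over all alternatives being 0.00724 to 0.122. In Th17p Total the DHEA libraries held 11.5, 11.4, 1.19, 15 and 16.4 TPM, where column 8 was the lowest, and the log2 change of 0.42 missed the threshold (limma adjusted p = 0.28). Without that library it was 0.96 and passed (limma adjusted p = 0.00215, over all alternatives 0.00215 to 0.63). In Th17n Div.1 the DHEA libraries held 0.651, 0.124, 1.51, 0 and 0.122 TPM of Il3 and the log2 change was 0.42 (limma adjusted p = 0.316), a value near the floor that passed with a pseudocount of 0.1 (log2 change 1.41, limma adjusted p = 0.0193).

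Lta had no call for DHEA, with log2 changes of -0.19 in Total of both types, 0.09 in Th17p Div.1 and 0.22 in Th17n Div.1. Lif rose 1.29-fold in Th17n Div.1 with overlapping groups, at 49.7, 64.2, 50.8, 55.4 and 60.6 TPM with DHEA and 39.99, 39.2, 43, 41 and 54 TPM with methanol (log2 change 0.37, SE 0.126, limma adjusted p = 0.0179). That call was lost without the DHEA library of column 7 (limma adjusted p = 0.0588, over all alternatives 0.00343 to 0.0588), and the other 3 log2 changes of Lif lay between -0.10 and 0.01.

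Csf1, which missed the filter, was compared by exact permutation tests over libraries, adjusted over the 12 comparisons of compounds, cell types and sorts, and none passed. In Th17n Total it held 0.918, 0.616, 1.09, 0.341 and 0.63 TPM with EGCG and 0.302, 0.333, 0.0774, 0.424 and 0.37 TPM with DMSO (two-sided exact p = 0.0238, adjusted p = 0.159). In Th17n Div.1 the values were 1.06, 0.722, 1.06, 0.466 and 0.706 TPM and 0.363, 0.585, 0.184 and 0.301 TPM (two-sided exact p = 0.0317, adjusted p = 0.159). The groups overlapped in both, and the smallest p that these group sizes allow is 0.00794. A fit in limma with no filter called both (adjusted p = 0.00403 and 0.00541) and also EGCG in Th17p Div.1 (adjusted p = 0.0262), where the exact p was 0.0397 (adjusted p = 0.159).

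The responses themselves were then compared between the cell types, by interaction terms in the same limma fit. The rise of Il2 with EGCG was not shown to differ between Th17p and Th17n, while its rise with DHEA was smaller in Th17p in both sorts. For EGCG in Total cells, 3 members differed in response (19.9% of all genes tested), and in Div.1 cells 2 did (17.5%). Il3 was 1 of them in each sort, as a description only since it passed the filter through Th17p. For DHEA in Total cells, 3 differed (14.8%), and in Div.1 cells 2 did (15.9%).

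The log2 response of Il2 to DHEA was 0.12 in Th17p and 1.52 in Th17n in Total, a difference of -1.40 (SE 0.288, limma adjusted p = 0.000246), and 0.51 and 1.72 in Div.1, a difference of -1.21 (SE 0.288, limma adjusted p = 0.00162). For EGCG the differences were -0.13 in Total (limma adjusted p = 0.819) and -0.71 in Div.1 (limma adjusted p = 0.1). The latter passed without the Th17n DMSO library of column 3, at -1.09 (limma adjusted p = 0.0033, over all alternatives 0.0033 to 0.95).

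Tnf responses also differed by type. The response to EGCG was larger in Th17p in Total, at 0.99 against 0.37 (difference 0.63, SE 0.166, limma adjusted p = 0.00362), and in Div.1 the difference of 0.18 missed the threshold (limma adjusted p = 0.551). Its response to DHEA was smaller in Th17p, at 0.34 against 0.86 in Total (difference -0.51, SE 0.166, limma adjusted p = 0.0248) and at 0.37 against 1.03 in Div.1 (difference -0.66, SE 0.166, limma adjusted p = 0.00307). The DHEA difference in Total was lost in 4 of 20 fits with 1 library left out, Th17p DHEA of column 6, Th17n methanol of column 6 or 7 or Th17n DHEA of column 7 (limma adjusted p = 0.0528 to 0.0638, over all alternatives 0.00836 to 0.0638).

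Il21 responses differed by type for EGCG in both sorts and for DHEA in Total. With EGCG the difference of Th17p from Th17n was -1.18 in Div.1 (SE 0.2, limma adjusted p = 8.42e-06), from responses of -0.03 and 1.15. In Total it was -0.55 (SE 0.188, limma adjusted p = 0.0289), which was lost in 7 of 20 fits with 1 library left out, Th17p DMSO of column 1 or 5, Th17p EGCG of column 1 or 3, Th17n DMSO of column 2 or Th17n EGCG of column 1 or 4 (limma adjusted p = 0.0538 to 0.0956, over all alternatives 0.00355 to 0.142). With DHEA in Total it was 0.73 (SE 0.188, limma adjusted p = 0.00351), from 0.53 in Th17p and -0.20 in Th17n, and in Div.1 it was 0.25 (limma adjusted p = 0.409). The EGCG responses of Il3 differed by 2.63 in Total and 2.33 in Div.1, with a rise in Th17p and Th17n libraries at or near 0. This is a description only. The DHEA responses of Il3 did not pass as different, at 0.39 in Total (limma adjusted p = 0.638) and 0.51 in Div.1 (limma adjusted p = 0.488).

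The Lif responses missed the threshold between types. In Div.1 the difference was -0.49 for EGCG (limma adjusted p = 0.0628) and -0.46 for DHEA (limma adjusted p = 0.0687). The first passed without Th17p DMSO of column 5, Th17p EGCG of column 3, Th17n DMSO of column 3 or Th17n EGCG of column 2 (limma adjusted p = 0.0185 to 0.0493, over all alternatives 0.0185 to 0.244), and the second without Th17p DHEA or Th17n methanol of column 10 (limma adjusted p = 0.0286 to 0.0416, over all alternatives 0.0189 to 0.138).

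**Figure D4:**
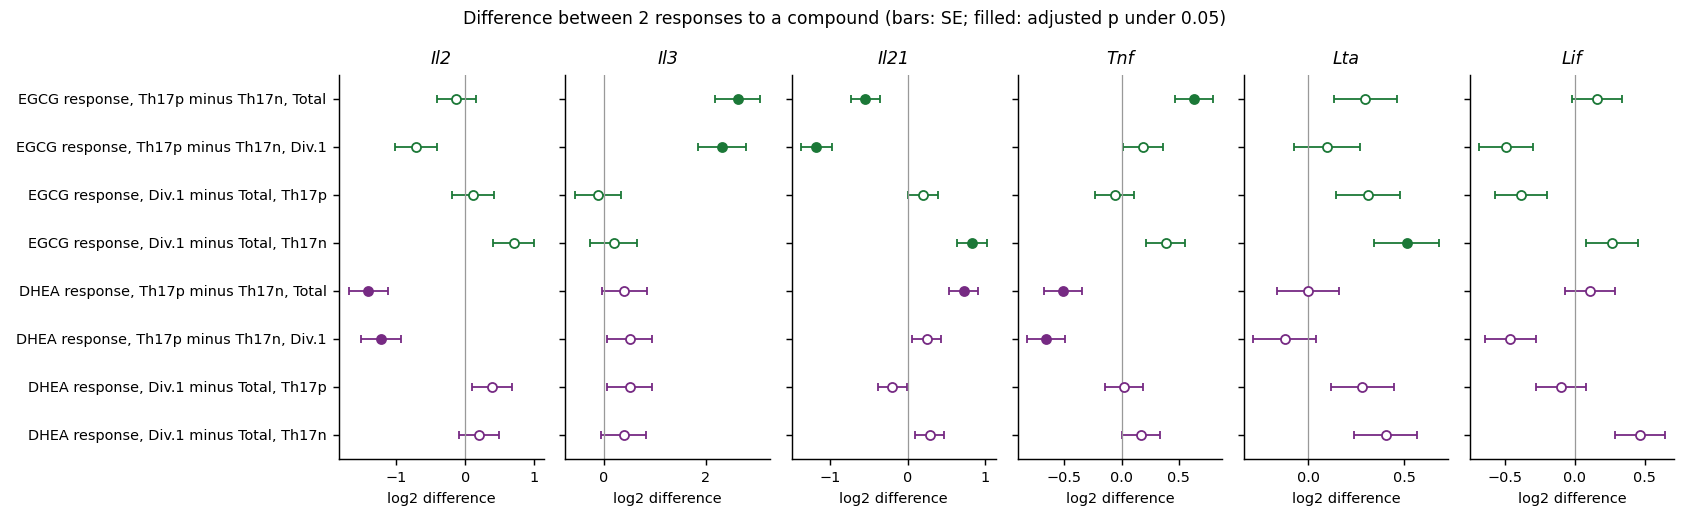
Difference in log2 response (± SE, limma) of the 6 members tested between cell types and between sorts, for each compound; filled points passed an adjusted p of 0.05. The Il2 response to DHEA is lower in Th17p by 1.40 in Total and 1.21 in Div.1, and the Il21 response to EGCG is lower in Th17p by 1.18 in Div.1.

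In solvent, most members were not called between cells sorted after 1 division and unsorted cells. Unsorted cells can include cells after 1 division, so a part was set against the whole and a missed call does not show equal levels. In Th17p, 1 member was higher in Div.1 (8.63% of all genes tested) and none was lower (10.8%), and in Th17n none was higher (5.8%) and 2 were lower (16.1%). After rescaling by the median ratio, 10.1% of all genes were called higher and 11.1% lower in Th17n. Il21 in Th17n was 40.9 TPM in Div.1 and 59.05 TPM in Total, 1.44-fold lower (log2 change -0.57, SE 0.097, limma adjusted p = 8.13e-06). Lta in Th17n was 1.23-fold lower in Div.1 (log2 change -0.34, SE 0.0838, limma adjusted p = 0.00177). Lif in Th17p was 28.6 TPM in Div.1 and 23.4 TPM in Total (log2 change 0.29, SE 0.0922, limma adjusted p = 0.0176), a call lost without the DMSO Div.1 library of column 2 (limma adjusted p = 0.0522, over all alternatives 0.0048 to 0.0522). For Il2 the log2 changes between the sorts in solvent did not pass in either cell type.

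The responses differed between sorts for 2 members with EGCG in Th17n (13.3% of all genes tested). There were none with EGCG in Th17p (2.57%), none with DHEA in Th17p (9.91%) and none with DHEA in Th17n (6.79%). The Il21 response to EGCG in Th17n was 1.15 in Div.1 and 0.32 in Total, a difference of 0.83 (SE 0.194, limma adjusted p = 0.00177). The Lta response was -0.15 in Div.1 and -0.67 in Total, a difference of 0.51 (SE 0.168, limma adjusted p = 0.0296). The Lta difference was lost in 7 of 19 fits with 1 library left out, DMSO Div.1 of column 1 or 4, DMSO Total of columns 2, 3 or 4, EGCG Div.1 of column 2 or EGCG Total of column 3 (limma adjusted p = 0.0508 to 0.108, over all alternatives 0.00644 to 0.111). The Il2 difference of 0.70 in Th17n missed the threshold (limma adjusted p = 0.108) and passed without the DMSO Div.1 library of column 3, at 1.08 (limma adjusted p = 0.00424, over all alternatives 0.00424 to 0.952). The Lif response to DHEA in Th17n differed between the sorts by 0.47 (limma adjusted p = 0.103), which passed without the methanol Div.1 library of column 10, at 0.55 (limma adjusted p = 0.0408, over all alternatives 0.0261 to 0.221).

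The solvents were compared to give the background of the treatments. Methanol and DMSO libraries differed in 1 member in Th17p Total (6.83% of all genes tested), 1 in Th17p Div.1 (4.74%), none in Th17n Total (6.66%) and 1 in Th17n Div.1 (6.1%). Lta in Th17p was higher in methanol in both sorts, at 124, 143, 121, 159 and 156 TPM in Total against the DMSO values given above. The groups were apart at 1.71-fold (log2 change 0.76, limma adjusted p = 2.13e-06), and in Div.1 they were apart at 1.65-fold (log2 change 0.72, limma adjusted p = 4.21e-05). The Lta call between solvents did not pass with well A4 placed under its label (limma adjusted p = 0.121 in Total and 0.209 in Div.1, over all alternatives 1.49e-06 to 0.121 and 7.63e-06 to 0.209). The call in Th17n Div.1 was Il21, 1.38-fold higher in methanol (log2 change 0.44, limma adjusted p = 0.0449) and lost in 7 of 9 fits with 1 library left out, any DMSO library or methanol of columns 8 to 10 (limma adjusted p = 0.051 to 0.22, over all alternatives 0.0288 to 0.336). Lta missed the threshold there, at a log2 change of 0.34 (limma adjusted p = 0.0853), and passed without DMSO of column 2 or methanol of column 6 or 7 (limma adjusted p = 0.0247 to 0.0463).

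Marker sums moved with some of these changes. Summed T cell markers in Th17p Total were 2990 to 3230 TPM with EGCG and 2180 to 2340 TPM with DMSO, and summed Th17 markers, which include Il17a and Il17f, were 717 to 1030 and 2930 to 3960 TPM. With DHEA in Th17p Total the Th17 sum was 524 to 744 TPM against 2390 to 3020 TPM in methanol. The 8 CD8 and NK cell markers summed to 16.9 to 23.7 TPM with DHEA and 7.23 to 10.5 TPM with methanol in Th17p Total, and to 8.13 to 11.9 TPM with EGCG and 4.02 to 7.98 TPM with DMSO. In Th17n Total the CD8 and NK cell sum was 9.11 to 12.4 TPM with DHEA and 6.27 to 6.73 TPM with methanol, and 5.87 to 7.24 TPM with EGCG and 4.39 to 5.63 TPM with DMSO. The T cell sum there was 2410 to 2600 TPM with EGCG and 1860 to 1990 TPM with DMSO. In Th17n Div.1 the Th17 sum was 7790 to 8940 TPM with EGCG and 3860 to 4800 TPM with DMSO, and with DHEA in Th17n Total it was 1020 to 1750 TPM against 4830 to 6220 TPM in methanol. The 6 B cell markers summed to 3.38 to 4.45 TPM with DHEA and 1.17 to 2.24 TPM with methanol in Th17n Div.1. Most of the CD8 and NK cell sum was Cd8b1 (3.41 to 26.9 TPM over all libraries), whereas Cd8a was at most 0.557 TPM, Gzma was at 0 in 75 of 78 libraries and Ncr1 at 0 in 74. Mcpt8, which defines basophils, was at 0 in all 78, also where Il3 was highest. The part of these shifts in the member changes was not tested.

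The other genes of the pathway were counted from lists of receptors, factors and targets. Receptor chains were mixed: of the 11 chains and partners tested, 4 rose and 4 fell with EGCG in Th17p Total (30.1% and 14.9% of all genes) and 6 rose and 2 fell with DHEA (20.9% and 26.8%). Il2rb, the IL-2 receptor beta chain that signals to STAT5, fell with EGCG in Th17p. Il2rb was 75.4 ± 4.74 TPM with EGCG and 140.9 ± 5.74 TPM with DMSO in Th17p Total (SD, n = 5 each), a log2 change of -0.90 (limma adjusted p = 9.82e-24). In Th17p Div.1 Il2rb was 78.3 ± 2.21 TPM (SD, n = 5) against 157.5 ± 7.57 TPM (SD, n = 4), a log2 change of -1.0 (limma adjusted p = 1.36e-24). The Il2rb response differed between Th17p and Th17n by -0.85 in Total (limma adjusted p = 2.9e-14) and -1.11 in Div.1 (limma adjusted p = 8.13e-18).

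Il2ra, the alpha chain that raises affinity for IL-2, went opposite ways in the cell types. With EGCG, Il2ra was 193.4 ± 11.4 against 265.6 ± 20.8 TPM in Th17p Total (SD, n = 5 each; log2 change -0.45, limma adjusted p = 8.46e-11). In Th17n Div.1 Il2ra was 374 ± 9.63 TPM (SD, n = 5) against 287.9 ± 15.1 TPM (SD, n = 4), with a log2 change of 0.38 (limma adjusted p = 1.79e-07). The Il2ra responses to EGCG differed by -0.63 in Total and -0.77 in Div.1 (limma adjusted p = 2.92e-09 and 7.01e-11). Il2rg, the common gamma chain shared by the IL-2 and IL-21 receptors, rose in all 8 comparisons of a compound with its solvent, for example from 652.3 ± 26.3 to 992.9 ± 42.6 TPM with EGCG in Th17p Total (SD, n = 5 each; log2 change 0.60, limma adjusted p = 2.62e-18).

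Il21r, the receptor of IL-21, rose with DHEA in Th17n Total from 85.8 ± 10.2 to 178 ± 38.1 TPM (SD, n = 5 each; log2 change 1.02, limma adjusted p = 2.66e-07). Tnfrsf1b, the second TNF receptor, fell with EGCG in all 4 comparisons, in Th17p Total from 18.8 ± 1.74 to 9.40 ± 0.892 TPM (SD, n = 5 each; log2 change -0.93, limma adjusted p = 5.29e-19). Tnfrsf1a, the first, rose there from 13.4 ± 0.69 to 16.9 ± 1.68 TPM (SD, n = 5 each; log2 change 0.31, limma adjusted p = 0.000719). Ltb, the membrane partner of Lta 3.1 kb from Tnf, rose with DHEA in all 4 comparisons, and in Th17p Total it went from 117.8 ± 19.1 to 416.8 ± 26.1 TPM (SD, n = 5 each; log2 change 1.83, limma adjusted p = 4.4e-19). The second chain of the IL-3 receptor, Csf2rb, was at most 0.324 TPM, and Ltbr and Csf1r, the receptors of the lymphotoxin complex and of CSF1, stayed below 1 TPM.

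Transcription factors downstream of the T cell receptor rose more often than they fell with both compounds, as did all genes with EGCG. With EGCG, 15 of the 20 factors tested rose and none fell in Th17p Total (30.1% and 14.9% of all genes), 17 and none in Th17p Div.1 (33.7% and 11.9%), 10 and 1 in Th17n Total (21.7% and 13.5%), and 9 and none in Th17n Div.1 (28.1% and 6.77%), with list medians of 0.62, 0.74, 0.35 and 0.21 on the log2 scale. After rescaling by the median ratio these counts were 13 and none, 14 and 1, 10 and 3, and 8 and 5, so that the excess of rises in Th17n Div.1 shrank. With DHEA, 11 rose and none fell (20.9% and 26.8% of all genes), 10 and 1 (18.1% and 19.2%), 11 and 1 (20.8% and 25.3%), and 9 and 1 (22.1% and 14.6%), with medians of 0.48, 0.44, 0.31 and 0.28. Egr1, Egr2, Fos, Fosl1, Junb, Nfkb2, Nr4a2 and Rel rose in all 4 EGCG comparisons, and Egr1, Fos, Nfkb1, Nr4a1 and Nr4a3 in all 4 with DHEA. After rescaling, Rel in Th17p Total (limma adjusted p = 0.0556) and Junb in Th17p Div.1 (limma adjusted p = 0.277) no longer passed for EGCG.

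Nfatc1, an NFAT factor that T cell activation induces, rose in Th17p Total from 27.02 ± 2.54 to 55.7 ± 10.2 TPM with EGCG (SD, n = 5 each; log2 change 1.00, limma adjusted p = 4.89e-14). With DHEA Nfatc1 rose from 28 ± 4.12 to 54.02 ± 6.36 TPM (SD, n = 5 each; log2 change 0.93, limma adjusted p = 7.65e-13). Nfatc1 was not called in Th17n, except with DHEA in Total after rescaling (log2 change 0.25, limma adjusted p = 0.0165), and its response differed between the types by 0.89 for EGCG and 0.71 for DHEA in Total (limma adjusted p = 1.05e-06 and 7.12e-05). Il2, by contrast, was called with DHEA in Th17n Total and not in Th17p Total. Nr4a1, an immediate early orphan nuclear receptor, rose with DHEA in both types, in Th17p Total from 79.2 ± 19.5 to 238.1 ± 35.4 TPM (SD, n = 5 each; log2 change 1.60, limma adjusted p = 1.45e-14) and in Th17n Total from 52.95 ± 6.82 to 153.4 ± 38 TPM (SD, n = 5 each; log2 change 1.49, limma adjusted p = 2.7e-13).

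Genes that IL-2 induces through STAT5 moved both ways with EGCG, and most of them rose with DHEA. With EGCG, 5 of 15 rose and 4 fell in Th17p Total, 4 and 5 in Th17p Div.1, 6 and 2 in Th17n Total and 6 and 4 in Th17n Div.1, with medians of -0.07 to 0.10, beside 21.7% to 33.7% of all genes rising and 6.77% to 14.9% falling. With DHEA, 12 rose and 1 fell in Th17p Total, and 9, 11 and 10 rose and none fell in the other 3 groups, with medians of 0.43 to 0.80, beside 18.1% to 22.1% of all genes rising and 14.6% to 26.8% falling. Tnfrsf4 (OX40), Tnfrsf9 (4-1BB) and Ccnd2 rose in all 8 comparisons, while Socs2 and Osm fell in all 4 with EGCG. Socs2, a feedback inhibitor of STAT5 signalling, went from 20.7 ± 4.04 to 5.03 ± 1.47 TPM with EGCG in Th17p Total (SD, n = 5 each; log2 change -1.86, limma adjusted p = 3.04e-19), and its response differed from that of Th17n by -1.08 (limma adjusted p = 1.53e-05).

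Gzmb, which encodes granzyme B, rose with DHEA in Th17p Total from 7.58 ± 2.13 to 87.1 ± 22.9 TPM (SD, n = 5 each; log2 change 3.35, limma adjusted p = 1.64e-20), with the higher CD8 and NK cell marker sum given above. The Gzmb response to DHEA was larger in Th17p by 3.05 (limma adjusted p = 3.55e-11). Bcl2, the survival factor, rose with DHEA in Th17n Total from 8.36 ± 1.66 to 30.3 ± 4.74 TPM (SD, n = 5 each; log2 change 1.75, limma adjusted p = 4.14e-20). Cish, a STAT5 target that restrains cytokine signalling, rose with DHEA in all 4 comparisons, in Th17n Div.1 from 208.2 ± 28 to 365.1 ± 24.9 TPM (SD, n = 5 each; limma adjusted p = 8.52e-12).

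**Figure D5:**
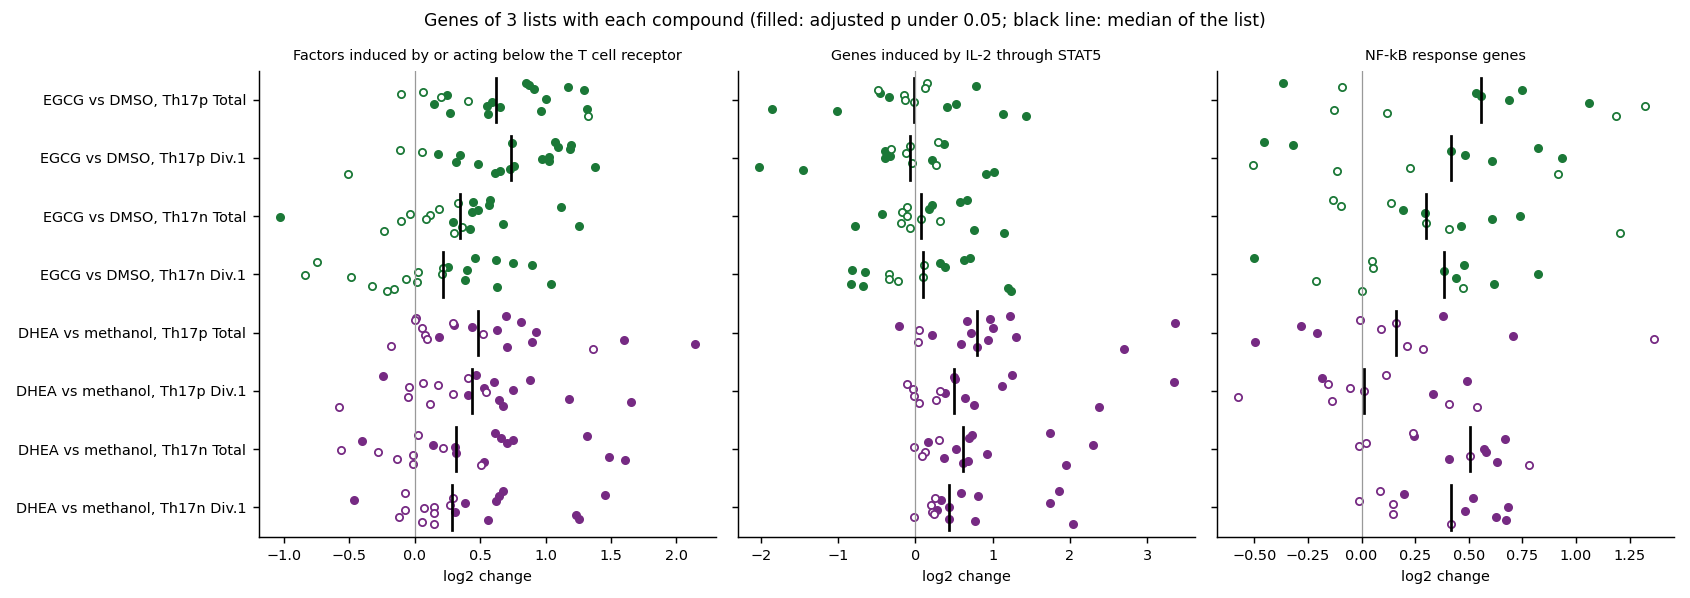
Log2 change of each tested gene of 3 lists (T cell receptor factors, STAT5 targets and NF-kB targets) for each compound against its solvent, with a black line at the list median. The STAT5 target medians lie between 0.43 and 0.80 with DHEA and near 0 with EGCG, while the factor medians lie above 0 in all 8 comparisons.

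NF-kB targets that TNF induces rose with EGCG in 5 of 11 cases in each of the 4 groups, with at most 2 falling. Over all genes, 21.7% to 33.7% rose and 6.77% to 14.9% fell. With DHEA 6 rose and none fell in each Th17n group (20.8% and 25.3% of all genes in Total, 22.1% and 14.6% in Div.1). In Th17p with DHEA, 2 rose and 3 fell in Total (20.9% and 26.8%) and 2 and 1 in Div.1 (18.1% and 19.2%). After rescaling by the median ratio the Th17p Total count was 4 rising and 3 falling. Nfkbia, Nfkbie and Nfkb2 rose in all 4 EGCG comparisons. Nfkbia, the inhibitor IkBa, went from 604.8 ± 34.4 (SD, n = 4) to 1159 ± 70 TPM (SD, n = 5) in Th17p Div.1 with EGCG (log2 change 0.94, limma adjusted p = 2.59e-16). With DHEA its means in Th17n rose from 292.1 to 434.3 TPM in Total and from 288.9 to 464.2 TPM in Div.1. In Th17p they were 630.5 TPM with DHEA against 727.7 TPM with methanol in Total, and 641.3 against 636.2 TPM in Div.1. The DHEA response of Th17p differed from that of Th17n by -0.78 in Total and -0.68 in Div.1 on the log2 scale (limma adjusted p = 4.54e-08 and 2.44e-06). These differences had the sign of those of Il2 and Tnf, whose means did not fall in Th17p with DHEA.

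Genes that restrain Il2 transcription or receptor signalling moved both ways with EGCG. Of 12 tested, 7 rose and 1 fell in Th17p Total (30.1% and 14.9% of all genes), 6 and 1 in Th17p Div.1 (33.7% and 11.9%), 4 and 3 in Th17n Total (21.7% and 13.5%) and 4 and 2 in Th17n Div.1 (28.1% and 6.77%). With DHEA, 8 rose and none fell in Th17p Total (20.9% and 26.8%), 7 and none in Th17p Div.1 (18.1% and 19.2%), 4 and 1 in Th17n Total (20.8% and 25.3%) and 3 and 1 in Th17n Div.1 (22.1% and 14.6%). Bach2 and Cblb rose in all 8 comparisons. Ikzf3, the lymphoid factor Aiolos, fell in all 4 with EGCG, in Th17n Total from 41.3 ± 2.67 to 31.04 ± 2.74 TPM (SD, n = 5 each; log2 change -0.40, limma adjusted p = 0.000252). Bach2, a repressor in T cells, went from 19.1 ± 1.29 to 48.5 ± 2.08 TPM with EGCG in Th17p Total (SD, n = 5 each; log2 change 1.30, limma adjusted p = 4.07e-27). Cblb, a ligase that dampens receptor signalling, went from 7.15 ± 0.665 to 23.4 ± 2.92 TPM with DHEA in Th17p Total (SD, n = 5 each; log2 change 1.58, limma adjusted p = 1.63e-20). Foxp3, the regulatory T cell factor, fell with EGCG in Th17n Div.1 from 100.2 ± 28.1 (SD, n = 4) to 25.04 ± 6.51 TPM (SD, n = 5), a log2 change of -1.95 (limma adjusted p = 5.89e-15).

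Proteins that bind AU-rich or stem-loop elements of cytokine transcripts moved both ways, 2 of 12 rising and 3 falling with EGCG in Th17p Total, where 30.1% of all genes rose and 14.9% fell. Zfp36, which promotes decay of Tnf and Il2 transcripts, fell there from 48.2 ± 4.56 to 32.9 ± 1.29 TPM (SD, n = 5 each; log2 change -0.53, limma adjusted p = 1.8e-07), while its relative Zfp36l1 rose from 32.5 ± 1.36 to 45.7 ± 1.68 TPM (SD, n = 5 each; log2 change 0.48, limma adjusted p = 6.41e-06). Rhbdf2, which helps the protease that sheds TNF, rose in all 4 EGCG comparisons, for example in Th17n Total from 5.59 ± 0.902 to 11.5 ± 0.751 TPM (SD, n = 5 each; log2 change 0.94, limma adjusted p = 3.73e-12), although its rise in Th17p Total did not pass after rescaling (limma adjusted p = 0.0796).

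Other cytokines moved differently in the cell types. Of 11 tested, 1 rose and 7 fell with EGCG in Th17p Total (30.1% and 14.9% of all genes), 2 and 8 in Th17p Div.1 (33.7% and 11.9%), 2 and 2 in Th17n Total (21.7% and 13.5%) and 4 and 1 in Th17n Div.1 (28.1% and 6.77%). With DHEA, 3 rose and 5 fell in Th17p Total (20.9% and 26.8%), 2 and 5 in Th17p Div.1 (18.1% and 19.2%), none and 4 in Th17n Total (20.8% and 25.3%) and 1 and 3 in Th17n Div.1 (22.1% and 14.6%). Il17f, a cytokine that defines Th17 cells, fell with EGCG in Th17p Total from 2284 ± 368 to 268.4 ± 93.6 TPM (SD, n = 5 each; log2 change -3.17, limma adjusted p = 2.78e-22). In Th17n Div.1 Il17f rose with EGCG from 3867 ± 354 (SD, n = 4) to 7597 ± 554 TPM (SD, n = 5; log2 change 0.97, limma adjusted p = 0.000131), and in Th17n Total its log2 change was -0.07 (limma adjusted p = 0.825). Il22, another Th17 cytokine, rose with EGCG in both Th17n sorts, by 1.44 in Total and 2.10 in Div.1 on the log2 scale (limma adjusted p = 0.00435 and 8.94e-05). These rises were at low levels, with means from 6.77 to 18.3 TPM in Total and from 2.32 to 10.8 TPM in Div.1. In Th17p, where Il22 was abundant, its means were lower with EGCG, at 80.9 against 341.3 TPM in Total and 86.0 against 297.5 TPM in Div.1. Tnfsf11, the TNF family ligand RANKL, rose with EGCG in Th17p Div.1 from 6.30 ± 2.43 (SD, n = 4) to 66.6 ± 21.2 TPM (SD, n = 5; limma adjusted p = 4.06e-13). Csf2, which lies 15.6 kb from Il3 and is often co-expressed with it, was listed at 0 in the median library and reached at most 0.673 TPM, also in Th17p with EGCG.

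Neighbouring genes were followed as a check of read sharing. The span of Adad1, on the plus strand, overlaps Il2 by 1408 bases with 0 exonic bases in common, and Adad1 reached at most 2.66 TPM. Adad1 rose with EGCG in Th17p, with log2 changes of 0.84 in Total and 1.04 in Div.1 (limma adjusted p = 7e-09 and 9.07e-11), and the share of Il2 reads in it was not tested. An antisense gene, Gm12534, shares 469 exonic bases with Il21, and since use of strand is not given in the sources used here, reads of the pair cannot be told apart. Beyond Il21, Cetn4 (75.1 kb away) stood at 11.1 to 31.3 TPM and Bbs12 (79.9 kb) at 4.56 to 14.1 TPM. Farther on, Nudt6 stood at 4.50 to 18.5 TPM and Fgf2 at 0 to 1.97 TPM. On the other side of Il2, 4932438A13Rik stood at 4.37 to 8.76 TPM. All of these lay below Il2. Cetn4 was called higher in all 4 EGCG comparisons, with a log2 change of 0.775 in Th17n Div.1 (limma adjusted p = 1.22e-08). With DHEA, 4932438A13Rik was called higher and Bbs12 lower in all 4. Bbs12 was also lower with EGCG in Th17p.

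The genes whose group means were most like each member were found by Pearson correlation over the 16 group means, which share cell types, treatments and plates, as a description. For Il2 these were Tnfsf14 (r = 0.989), Nfkbia (0.988), St3gal1 (0.984) and Gimap1 (0.980). For Lta they were Tnfrsf13b (0.994), Tnk2 (0.990), Epb4.1l2 (0.989) and Fam129b (0.989). For Tnf they were Pdgfb (0.980), Tmem59 (0.965), Wdyhv1 (0.962) and Map7 (0.962), and for Il3 Snx9 (0.979), Spin4 (0.976), Gfod1 (0.975) and Ms4a6d (0.975). Spin4 and Ms4a6d were low, with group means of 0.0206 to 1.76 TPM and 0.0248 to 3.74 TPM. Lif was most like Slc6a8 (0.966), which was also low at 0.278 to 1.27 TPM, and Zeb1 (0.961). Il21 had the loosest likeness, with Amica1 (0.877), Msrb1 (0.841), Ctla4 (0.817) and Usp38 (0.815). Among the members, Il2 went with Il3 (0.887) and against Lta (-0.860), and Lta went with Lif (0.915). For Il2 and Tnf the correlation was -0.259, over groups that pool cell types in which Il2 was higher in Th17p and Tnf in Th17n. Against the solvents, both genes rose with EGCG in all 4 comparisons and with DHEA in both Th17n sorts. Correlations within a cell type were not computed.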

How the data were processed

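Polyadenylated RNA from 79 libraries of cultured mouse Th17 cells was sequenced. The tools were Trimmomatic and kallisto and the build mm10, per the submitters' processing notes, with no versions or settings given in the sources used here. The authors deposited the result as TPM per gene symbol. How transcripts were summed to symbols is not given in the sources used here. Columns summed to 880077 to 895017 TPM, and genes of the mitochondrial genome were not analysed here. TPM keep no depth, so counting error could not be computed.

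Groups came from the library titles and replicate numbers from the well columns. The members, gene lists and tests were chosen with earlier results of these data known. Genes with at least 1 TPM in at least 4 libraries (10672 of 20465) were fitted as log2(TPM + 1) in limma 3.58.1 (R 4.3.3) with 16 group means, empirical Bayes moderation and a trend, in 24 comparisons adjusted by Benjamini-Hochberg over genes within each. The pseudocount of 1 makes log2 changes understate the change of low genes. Means and folds are of TPM. Csf1 was compared by two-sided exact permutation tests. Same-numbered libraries were not paired in the main fit, which took all libraries as independent. Correlations of their deviations were taken between each compound and its solvent, and not between sorts or cell types. They were -0.00159 to 0.276 over 38 pairs, all positive but the lowest, and 11 passed 0.1. Column 1 of EGCG and DMSO gave 0.151 to 0.236, and column 10 of DHEA and methanol 0.091 to 0.276. The highest, DHEA column 10 in Th17n Div.1, stood beside -0.128 to -0.0303 with the other methanol columns. The lowest, DHEA column 6 in Th17p Div.1, stood beside 0.0272 with methanol column 7. Whether wells of a column shared a mouse was not tested. No duplicate library was found among 152 pairs within groups (r from 0.976 to 0.993). Named list genes were the fixed receptors and neighbours and a part of the called genes with the smallest adjusted p per list and at least 5 TPM on average in the higher group. Factors and targets given without values are those called in all comparisons of a compound, and Zfp36l1, Rhbdf2 and other examples were chosen after their values were seen.

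The fit was tested on simulated data of 10672 genes. These had independent normal noise around the means of a single group, and a far smaller share of changed genes than the real comparisons called. The rates therefore hold for that setting and are not those of the real comparisons. For EGCG in Th17p Total it found 66% of shifts of 0.5 and 90% of shifts of 1 on the log2 scale, with 5.45% of calls false, and for the difference of EGCG responses between types in Total 46% and 82%, with 4.48% false. Alternatives were a pseudocount of 0.1, no filter, rescaling by the median ratio, the compared groups alone, the well column as a block, well A4 in its labelled group, each library left out in turn, and, added after seeing the data, no wells of columns 1 and 10. Positions are from the GRCm38 gene annotation and promoters from RefSeq GRCm38.p6, in which all 7 members were matched by symbol. Python 3.11.15, pandas 2.3.3, numpy 2.4.6, scipy 1.17.1 and matplotlib 3.10.9 were used.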

Additional observations from a re-analysis of the deposited data

Results flagged for a closer look

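In 109 groups of 4 or 5 libraries, the gap between an extreme library and its nearest neighbour was set against the range of the group. It was wide in 8, where chance alone gives about 1 in 20 groups. That rate does not hold for groups with libraries at 0, and the count of 8 was not tested against it. Il2 in Th17n DMSO Div.1 was 292.4 TPM in column 3, and without this library the Il2 response to EGCG in Div.1 passed as different between types and, in Th17n, between sorts. Il3 in Th17p DHEA Div.1 was 47.51 TPM in column 8, and in Th17n Methanol Total it was 0.09479 TPM in column 10. In the latter group the other 4 libraries were at 0, so that the gap was bound to be wide. In Th17n Methanol Div.1, column 10 stood apart for Il21 (62.38 TPM) and for Lif (53.99 TPM). The others were Tnf in Th17p DMSO Div.1 (107.9 TPM, column 1), Lta in Th17n DHEA Total (1595.0 TPM, column 7) and Lif in Th17p EGCG Total (33.05 TPM, column 5).

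Of 48 response differences tested in limma, 12 passed, 2 of them for Il3, a description only since it entered the fit through Th17p. For EGCG, Th17p minus Th17n, these were Il3 at 2.635, Il21 at -0.549 and Tnf at 0.629 in Total, and Il3 at 2.326 and Il21 at -1.183 in Div.1, all on the log2 scale. For EGCG, Div.1 minus Total in Th17n, they were Il21 at 0.832 and Lta at 0.513. For DHEA, Th17p minus Th17n, they were Il2 at -1.398, Il21 at 0.732 and Tnf at -0.513 in Total, and Il2 at -1.214 and Tnf at -0.66 in Div.1.

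The library of well A4, which entered no comparison, held Il21 at 46.24 TPM, above the 31.26 to 36.75 TPM of the other libraries labelled Th17n in DMSO after 1 division.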

How the results depend on the processing

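Over all alternatives, 3286 values of single members were recomputed. Of these 3178 kept their side of the threshold, 70 lost a call, 38 gained one and 0 changed the direction of a call. Leaving out each library moved the count of called members from 2 to between 1 and 3 for DHEA in Th17p Total, from 4 to between 1 and 4 for DHEA in Th17p Div.1, and from 1 to between 0 and 1 for the sorts in Th17p. It moved methanol against DMSO in Th17n Div.1 from 1 to between 0 and 2, the EGCG response by type in Div.1 from 2 to between 2 and 4, the EGCG response by sort in Th17n from 2 to between 1 and 3, and the DHEA response by sort in Th17n from 0 to between 0 and 1. Counts also moved through Il21 for EGCG in Th17n Total and through Lif for EGCG and for DHEA in Th17n Div.1. In the responses by type they moved through Il21 for EGCG in Total, Tnf for DHEA in Total and Lif for DHEA in Div.1.

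DHEA in Th17p Div.1 had 2 called members with no filter, 1 with well A4 in its labelled group and 2 without the wells of columns 1 and 10. Methanol against DMSO had 2 with the groups alone and 0 with well A4 in Th17p Total, 0 with well A4 in Th17p Div.1, and 0 in Th17n Div.1 with no filter, after rescaling, with the groups alone and without columns 1 and 10. The EGCG response by sort in Th17n had 1 with no filter, after rescaling and without columns 1 and 10. With the well column as a replicate block, the EGCG response by type in Div.1 had 4 and the DHEA response by sort in Th17n had 1, and among 120 single values the block gained 6 calls and lost 0. The gains were Il21 for EGCG in Th17n Total, Il2 (limma adjusted p = 0.0463) and Lif (0.0428) for the EGCG response by type in Div.1, Il2 for the EGCG response by sort in Th17n (0.0332), and Lif for the DHEA response by type in Div.1 (0.0189) and by sort in Th17n (0.0261). The causes were not tested. Depth is unknown for TPM, so differences of Csf1 and of Il3 in Th17n, at or below 1 TPM, could not be resolved.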

Other observations

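In the library of well A4, labelled Th17n in DMSO after 1 division, Il2 was 1244 TPM, Il3 8.45, Tnf 90.8, Lta 75.1, Lif 24.5 and Csf1 0.181 TPM. All 7 members lay outside the range of the 4 other libraries with that label. For Csf1 this was 0.181 TPM against a lowest of 0.1836 TPM, a difference too small to be resolved at that level. Il2, Il3, Tnf, Lta and Csf1 lay inside the range of the 4 libraries labelled Th17p in DMSO after 1 division, and Il21 and Lif lay outside it.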
